A study of Homo sapiens with 12 samples.

Results

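Transcript levels of the antioxidant regulator NRF2 (gene NFE2L2), its inhibitor KEAP1 and 7 target genes (HMOX1, NQO1, GCLC, GCLM, SRXN1, TXNRD1 and TXN) were followed in hTERT-RPE1 cells, a line of human retinal pigment epithelial cells immortalised with telomerase. The 9 genes were chosen by their symbols, and 8 of them had a row, 1 each, among the 53361 rows of the gene table. The RNA level of SRXN1, which encodes the enzyme sulfiredoxin, was not analysed here. Of the 12 RNA-seq libraries, 3 came from cells exposed to reversine at 0.5 µM for 24 h and collected 48 h after it was washed out, 3 from cells given 0.1 µM bafilomycin A1 (BafA1) for 6 h, 3 from cells given 1 µM MG132 for 24 h, and 3 from cells labelled as treated with none (control). Reversine inhibits the mitotic checkpoint kinase MPS1 and produces aneuploid cells, BafA1 blocks the lysosomal proton pump, and MG132 inhibits the proteasome. Neither a vehicle nor a collection time is labelled for the controls. Nothing states that libraries of 1 group are independent cultures, and p-values therefore measure only their spread, which may be technical.

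KEAP1 is an adaptor of a CUL3 ubiquitin ligase that binds NRF2 in unstressed cells and passes it to the proteasome. When reactive compounds modify KEAP1, when p62 (SQSTM1) occupies it, or when the proteasome is blocked, NRF2 escapes degradation, pairs with a small MAF protein and binds antioxidant response elements in the promoters and enhancers of genes for haem breakdown, glutathione synthesis, the thioredoxin system and quinone reduction. In the retinal pigment epithelium, which works under light and high oxygen, these enzymes form a main part of the defence against oxidants. This control acts largely on the NRF2 protein, which RNA sequencing does not measure.

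The promoters are shown because this element is the sequence through which the pathway reads NRF2. RefSeq windows (GRCh38.p14) from 250 bases before to 50 bases after a gene's start were given for 8 of the 9 genes, all but HMOX1, in 11 windows. A search on both strands for TGACNNNGC, the core of the antioxidant response element, found it in 3 of these 8 genes (GCLM, KEAP1 and TXNRD1; 37.5%), against 16.1% of 27305 genes with a window. The lines below run 5′ to 3′ on the strand of the gene, with the matches before the start in capitals; the first TXNRD1 window held a further match after the start, which is not shown. A capital run that begins with GC is the same motif read on the opposite strand.
GCLM (chr1:93909431-93909504, minus strand): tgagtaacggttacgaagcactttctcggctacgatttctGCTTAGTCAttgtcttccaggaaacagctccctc
KEAP1 (chr19:10502772-10502865, minus strand): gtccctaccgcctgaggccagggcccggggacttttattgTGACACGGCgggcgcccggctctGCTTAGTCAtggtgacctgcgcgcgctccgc
TXNRD1, first window (chr12:104215640-104215728, plus strand): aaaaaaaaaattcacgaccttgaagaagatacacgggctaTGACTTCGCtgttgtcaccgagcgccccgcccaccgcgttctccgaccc
TXNRD1, second window (chr12:104286890-104286978, plus strand): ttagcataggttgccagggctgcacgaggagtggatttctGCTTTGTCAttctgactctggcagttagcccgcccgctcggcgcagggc
The match in GCLM lay 34 to 26 bases before the start, and the matches in KEAP1 lay 54 to 46 and 31 to 23 bases before it. GCLM and KEAP1 carried the same 9 letters, GCTTAGTCA, inside a shared run of 13 bases, TCTGCTTAGTCAT, which occurred in 3 of 35116 windows. The exact site TGACTAAGC, on either strand, occurred in 36 of these windows (0.103%), and the site of the second TXNRD1 window in 110 (0.313%). The windows of GCLC, NFE2L2, NQO1, SRXN1 and TXN did not hold these letters. Sequence more than 250 bases before the start was not searched, so these genes may carry the element elsewhere. A match is a stretch of sequence and no measure of binding, and the RNA values themselves were made on hg19.

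Values are FPKM as deposited, that is, fragments counted per kilobase of transcript and relative to all mapped fragments of the library. A difference is on the log2(FPKM + 1) scale, and a gene was called when limma's adjusted p over the 30712 tested rows was under 0.05. Read counts are unknown. Total FPKM ranged from 962891 to 2057717 per library. Depth was not measured but inferred from the values of 12089 rows that lay above 0 and under 0.5 FPKM in every library. Relative to the library with the highest estimate, it ran from 0.647 to 1. In 4 libraries (reversine 1, BafA1 3, MG132 2 and MG132 3) levels fell with the GC content of the transcript relative to the average library, with slopes of -0.079 to -0.431 on the log2 scale per 10 points of GC, against 0.072 to 0.194 in the other 8; they are called the low-GC libraries below. Of 10 markers of the pigment epithelium, RPE65 had 0.04 to 0.06 FPKM, and TYR and TTR did not exceed 0.64. BEST1, RLBP1 and TYRP1 had 0.86 to 2.81, PMEL and SERPINF1 3.3 to 6.52, and MITF and OTX2 9.29 to 20.3. The epithelial keratins KRT8 and KRT18 had 262 to 932.65 and 183 to 630 FPKM, while the mesenchymal filament gene VIM was higher, at 3336 to 25592. Of other cell types, the T cell marker CD3E did not exceed 0.81 FPKM and the endothelial markers PECAM1, CDH5, VWF and KDR did not exceed 2.91, while PTPRC reached 13.2 in 1 MG132 library. The neuronal list was higher, with TUBB3 at 60.2 to 725 FPKM, SYT1 at 8.8 to 32.7, RBFOX3 at 4.29 to 15.8 and SNAP25 at 1.39 to 5.8.

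MG132 raised 4 of the 8 measured genes, HMOX1, GCLM, GCLC and TXNRD1, and lowered none past the threshold, where 14.8% of all tested genes were called (7.14% higher, 7.67% lower). That share depends on the rows tested. In a further fit on transcripts of at least 500 nt, which include the 8 genes, 7027 of 16049 genes were called (3912 higher, 3115 lower). Reversine raised 1, HMOX1, where 2.09% of all genes were called (0.801% higher, 1.29% lower). BafA1 lowered 1, TXNRD1, where 0.264% of all genes were called (0.202% higher, 0.0619% lower). The 3 comparisons share their control libraries. Counted by libraries that do not overlap those of the control, 4 genes were higher and 2 lower under MG132, against 20.3% and 13.5% of all genes, 1 higher and 3 lower under reversine, against 9.97% and 10.1%, and 3 lower under BafA1, against 7.42%. NFE2L2, KEAP1, NQO1 and TXN were not called in any of the 3 comparisons over the 30712 rows. The median difference over the 8 genes was -0.12 for reversine, against 0.09 over all tested genes, -0.34 for BafA1, against 0.14, and 0.21 for MG132, against 0.04. Bulk libraries cannot tell more RNA per cell from more cells that carry it.

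**Figure D1:**
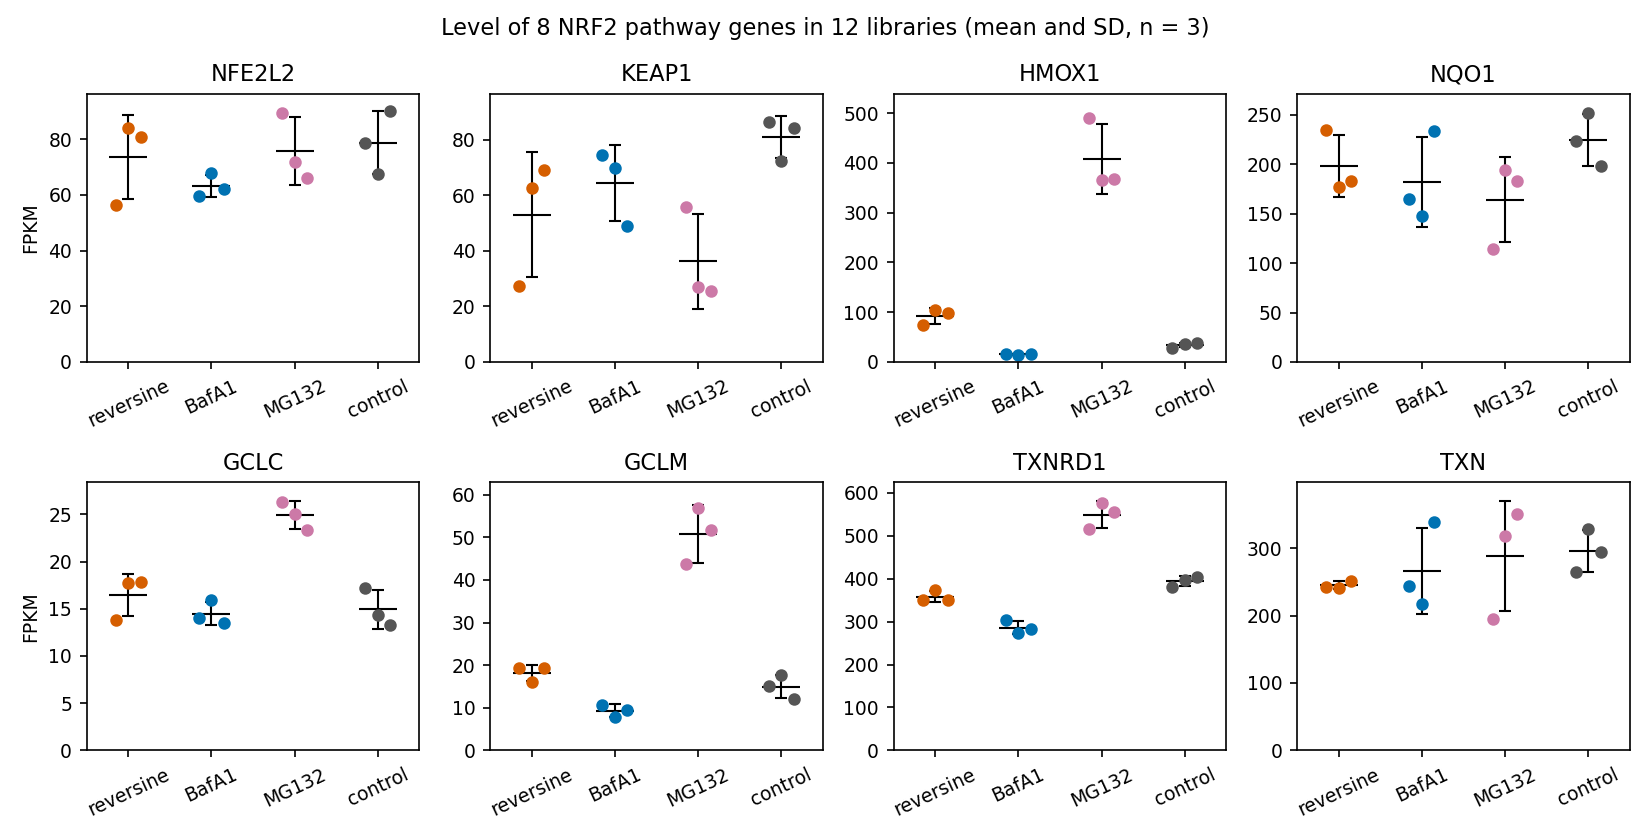
FPKM (linear axis from 0) of the 8 genes in each of the 12 libraries; points are libraries, the wide bar is the mean and the thin bar the SD of 3 libraries. HMOX1, GCLM, GCLC and TXNRD1 stand above the controls in all 3 MG132 libraries, and HMOX1 also in all 3 reversine libraries (73.3 to 105 FPKM).

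NFE2L2, the gene for NRF2 itself, did not pass the test under any drug. Its FPKM was 56.4, 84.2 and 80.7 in reversine libraries, 59.7, 67.7 and 62.2 in BafA1 libraries, 89.4, 71.7 and 66.2 in MG132 libraries, and 78.6, 67.5 and 90.2 in control libraries. Each treatment overlapped the controls. The differences from control were -0.10 for reversine (adjusted p = 0.814), -0.31 for BafA1 (adjusted p = 0.696) and -0.06 for MG132 (adjusted p = 0.877, limma). The 95% interval for MG132, not adjusted over genes, ran from -0.47 to 0.36. In the reference annotation, GENCODE v29, NFE2L2 overlaps the protein-coding gene AGPS and several antisense transcripts on the opposite strand. Overlaps given here are of whole gene spans, and shared exons were not checked. No strand setting is stated for the counting, so whether reads of these genes were mixed is not known.

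KEAP1, the substrate adaptor that holds NRF2 back, averaged lower than control under each drug but passed the threshold under none. It had 27.2, 62.5 and 69.0 FPKM in reversine libraries, 74.3, 69.8 and 48.8 in BafA1 libraries, 55.9, 27.0 and 25.6 in MG132 libraries, and 86.5, 72.3 and 84.0 in control libraries. All reversine and all MG132 libraries lay below the lowest control. The difference was -1.23 for MG132 (SE 0.39, adjusted p = 0.0673), -0.71 for reversine (adjusted p = 0.469) and -0.35 for BafA1 (adjusted p = 0.733, limma). The KEAP1 transcript is rich in GC (60.6%), and the 3 low-GC libraries reversine 1, MG132 2 and MG132 3 held its lowest levels of all 12 libraries, while reversine 2, reversine 3 and MG132 1, which are not among the low-GC libraries, also lay below the lowest control. The part of the GC trend in these differences was not tested apart from the values that follow. With these libraries left out the MG132 difference was -0.52 (adjusted p = 0.142). After correction for GC content and length on transcripts of at least 500 nt it was -0.76 and called (adjusted p = 0.0174), with 53.3, 38.1 and 36.8 FPKM in MG132 libraries against 74.6, 67.2 and 74.4 in control libraries. It was also called on those transcripts without the correction (adjusted p = 0.0234) and when MG132 1 was left out (adjusted p = 0.00855). Leaving out MG132 1 kept only the low-GC libraries MG132 2 and MG132 3. These 3 fits called large shares of all genes: 7707 and 7027 of 16049 with and without the correction, and 13046 of 30712 without MG132 1. With other single libraries left out the adjusted p for KEAP1 reached 0.224.

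**Figure D2:**
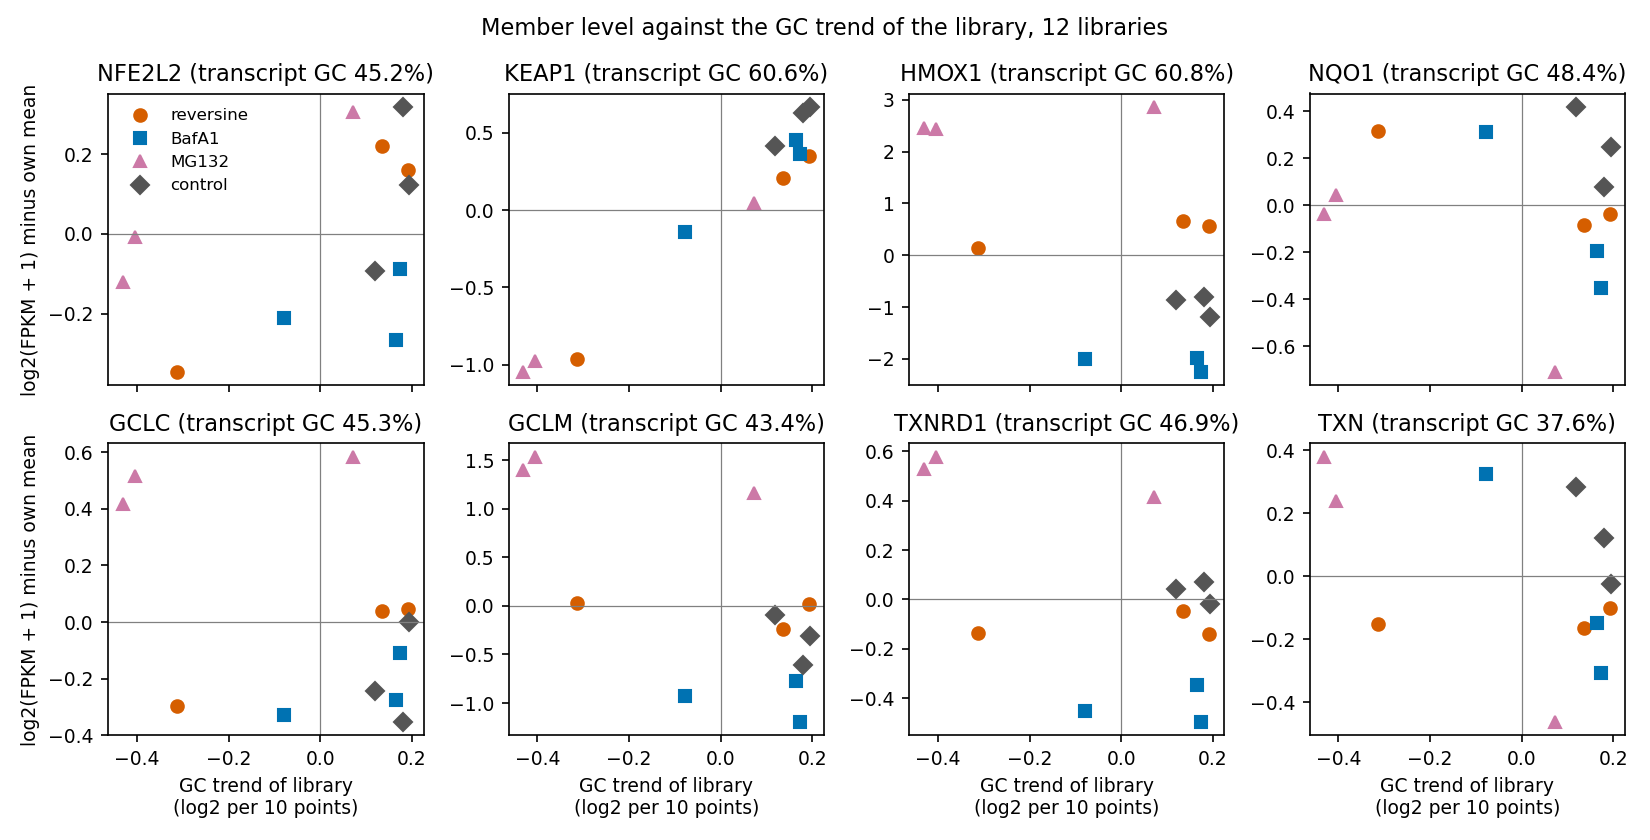
Level of each gene in a library, as log2(FPKM + 1) minus its mean over the 12 libraries, against the GC trend of that library (log2 per 10 points of GC, transcripts of at least 500 nt); each point is 1 library. KEAP1 is lowest in the 3 libraries with the steepest fall. For HMOX1, GCLM and TXNRD1 the 3 MG132 libraries are the highest, of which MG132 2 and MG132 3 have the steepest falls of all. The part of the GC trend in these levels was not tested in this figure.

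HMOX1, the inducible haem oxygenase that opens haem to biliverdin, iron and carbon monoxide, varied most among the 8 genes. It had 73.3, 105 and 98.2 FPKM in reversine libraries, 16.02, 13.1 and 15.7 in BafA1 libraries, 489.98, 365 and 368 in MG132 libraries, and 28.6, 35.8 and 37.5 in control libraries. The 4 groups did not overlap at all, with MG132 highest, then reversine, control and BafA1. The mean was 408 ± 71.2 FPKM under MG132, 12 times the control mean of 34.0 ± 4.69 (SD, n = 3 each), a difference of 3.54 (SE 0.19, adjusted p = 1.07e-05, limma). Under reversine it was 92.3 ± 16.8 FPKM, 2.71 times control, a difference of 1.41 (SE 0.19, adjusted p = 0.00503). This level was measured 48 h after the drug had been washed out, unlike those of BafA1 and MG132. The reversine call was lost when only those 2 groups were fitted (adjusted p = 0.126).

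Under BafA1 HMOX1 averaged 14.95 ± 1.60 FPKM, 0.44 times the control mean. Every BafA1 library lay below every control. The difference of -1.13 (SE 0.19) missed the threshold (adjusted p = 0.0557), and under the alternatives its adjusted p ran from 0.00209 to 0.431. The HMOX1 transcript has 60.8% GC. Without the 4 low-GC libraries, which left 1 MG132 and 2 reversine libraries, its differences from control were 3.82 for MG132 and 1.56 for reversine (adjusted p = 0.00329 and 0.0278).

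Glutamate-cysteine ligase makes the first and rate-limiting step of glutathione synthesis, with GCLC as its catalytic and GCLM as its modifier subunit. GCLM had 19.4, 16.01 and 19.2 FPKM in reversine libraries, 10.7, 7.73 and 9.54 in BafA1 libraries, 43.6, 56.9 and 51.7 in MG132 libraries, and 15.1, 17.7 and 12.1 in control libraries. The MG132 libraries lay well above the rest and the BafA1 libraries below the controls, while reversine overlapped the controls. MG132 raised GCLM to 50.8 ± 6.70 FPKM, 3.39 times the control mean of 14.98 ± 2.77 (SD, n = 3 each), a difference of 1.70 (SE 0.20, adjusted p = 0.000557). That call was lost when the 4 low-GC libraries were left out, although the difference was still 1.50 (adjusted p = 0.0524), with 1 MG132 library remaining, which that fit takes to vary like the other groups. The differences under BafA1 (-0.62, adjusted p = 0.465) and reversine (0.28, adjusted p = 0.629) were not called.

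GCLC, the catalytic subunit, moved less. Its FPKM was 13.9, 17.7 and 17.8 in reversine libraries, 14.1, 15.9 and 13.5 in BafA1 libraries, 26.3, 25.1 and 23.3 in MG132 libraries, and 17.2, 14.4 and 13.3 in control libraries. Only the MG132 libraries stood apart from the controls. The MG132 mean of 24.9 ± 1.50 FPKM was 1.66 times the control mean of 14.96 ± 2.05 (SD, n = 3 each), a difference of 0.70 (SE 0.17, adjusted p = 0.0217). This call was lost in 7 of 15 alternatives, among them leaving out control 2 (adjusted p = 0.0689), control 3 (0.0822), MG132 2 (0.0896) or MG132 3 (0.0667), and a median-ratio scaling, which lowered the difference to 0.44 (adjusted p = 0.215). GCLC overlaps an antisense transcript in the annotation. The level of GCLM over that of GCLC, both per length, was 1.66, 2.27 and 2.22 in MG132 libraries, 0.764, 0.486 and 0.706 in BafA1 libraries and 1.40, 0.904 and 1.08 in reversine libraries, against 0.878, 1.23 and 0.915 in control libraries. The modifier subunit thus exceeded the catalytic one in all 3 MG132 libraries and stayed under it in all 3 BafA1 libraries.

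Thioredoxin (TXN) reduces protein disulphides and is itself reduced by thioredoxin reductase (TXNRD1) with NADPH. TXNRD1 had 351, 373 and 349.92 FPKM in reversine libraries, 303, 273 and 282 in BafA1 libraries, 515, 576 and 556 in MG132 libraries, and 381, 397 and 405 in control libraries. Its libraries agreed closely within each group, and every treatment was separated from control: MG132 lay above it, reversine just below and BafA1 further below. MG132 raised TXNRD1 to 549 ± 31.1 FPKM, against 394 ± 12.1 in controls (SD, n = 3 each), 1.39 times, a difference of 0.48 (SE 0.07, adjusted p = 0.00194). BafA1 lowered it to 286 ± 15.4 FPKM, 0.725 times control, a difference of -0.46 (SE 0.07, adjusted p = 0.0335). The reversine difference was -0.14 (adjusted p = 0.439).

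Neither TXNRD1 call held throughout. The BafA1 call was lost in 11 of 15 alternatives, and leaving out any 1 of the 6 libraries gave an adjusted p of 0.0938 to 0.271, with differences of -0.51 to -0.43. The MG132 call was lost with median-ratio scaling (0.20, adjusted p = 0.293), with GC and length correction over all rows (0.21, adjusted p = 0.616) and without the 4 low-GC libraries (0.39, adjusted p = 0.0533). It was kept with each single library left out. In the annotation TXNRD1 overlaps the gene EID3 on its own strand and an antisense transcript.

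TXN itself was not called under any treatment. It had 243, 241 and 252 FPKM in reversine libraries, 243, 218 and 338 in BafA1 libraries, 195, 319 and 351 in MG132 libraries, and 265, 328 and 294 in control libraries. All 3 reversine libraries lay just below the lowest control, and the other treatments overlapped the controls. The differences were -0.26 for reversine (adjusted p = 0.748), -0.17 for BafA1 (adjusted p = 0.762) and -0.07 for MG132 (adjusted p = 0.863). TXN has the shortest (681 nt on average) and the least GC-rich (37.6%) transcripts of the 8 genes. Its 2 highest MG132 values and its highest BafA1 value came from low-GC libraries. After GC and length correction on transcripts of at least 500 nt TXN was called lower under MG132 (-0.78, adjusted p = 0.00305), with 217, 195 and 211 FPKM in MG132 libraries against 337, 373 and 361 in control libraries, and lower under reversine (-0.55, adjusted p = 0.0443). That fit called 7707 of 16049 genes for MG132 and 2543 for reversine.

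NQO1, a quinone reductase often used as a readout of NRF2 activity, was not called under any drug. Its FPKM was 234, 177 and 183 in reversine libraries, 164, 147 and 233 in BafA1 libraries, 115, 194 and 183 in MG132 libraries, and 223, 252 and 199 in control libraries. Reversine and BafA1 overlapped the controls, and the 3 MG132 libraries lay below the lowest control. The MG132 difference was -0.48 (95% interval -1.02 to 0.05, not adjusted over genes), with an adjusted p of 0.159. Without the 4 low-GC libraries, which left the single MG132 library at 115 FPKM, the difference was -0.96. NQO1 was called lower with the correction on transcripts of at least 500 nt (-0.58, adjusted p = 0.0441), a fit that called 7707 of 16049 genes. The differences for reversine (-0.18, adjusted p = 0.814) and BafA1 (-0.33, adjusted p = 0.733) were small against their spread. NQO1 overlaps an antisense transcript in the annotation.

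**Figure D3:**
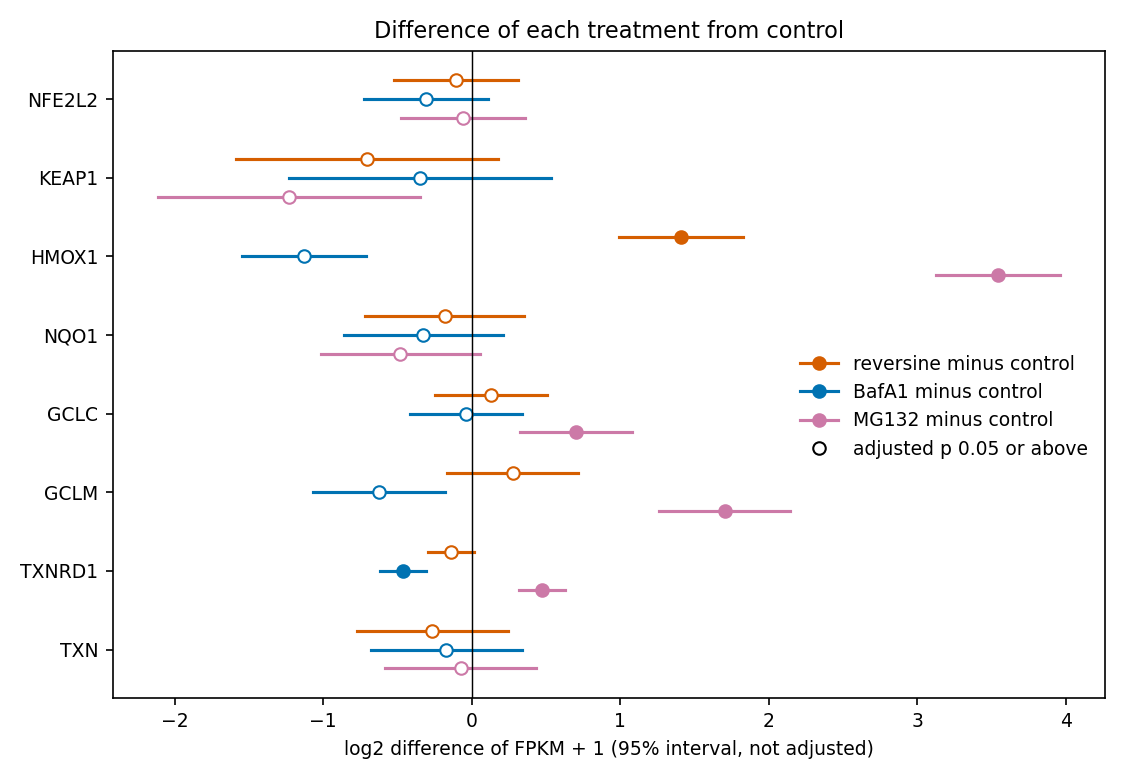
Difference from control on the log2(FPKM + 1) scale for the 8 genes (rows) and the 3 treatments (colours), from limma; bars are 95% intervals not adjusted over genes, and open circles have an adjusted p of 0.05 or above. HMOX1 under MG132 (3.54) lies farthest to the right, and the 4 genes NFE2L2, KEAP1, NQO1 and TXN have open circles throughout.

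The order of levels also shifted. In control libraries TXNRD1 was the most abundant per length (394 ± 12.1 FPKM), followed by TXN (296 ± 31.5), NQO1 (225 ± 26.7), KEAP1 (80.9 ± 7.61), NFE2L2 (78.8 ± 11.3), HMOX1 (34.0 ± 4.69), GCLM (14.98 ± 2.77) and GCLC (14.96 ± 2.05). The neighbours KEAP1 and NFE2L2, and GCLM and GCLC, overlapped between libraries, whereas the other neighbours did not. In MG132 libraries HMOX1 came second, at 408 ± 71.2 FPKM, above TXN at 288 ± 82.1 and NQO1 at 164 ± 43.1. GCLM, at 50.8 ± 6.70 FPKM, then lay between NFE2L2 at 75.7 ± 12.1 and KEAP1 at 36.2 ± 17.1, and overlapped the range of KEAP1. In BafA1 libraries HMOX1 (14.95 ± 1.60 FPKM) overlapped GCLC (14.5 ± 1.25).

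The treatments were also set against each other in the same fit, although their doses and times differ. HMOX1 was higher in reversine than in BafA1 libraries by 2.54 (adjusted p = 0.000481), the 1 call among the 8 genes in a comparison that called 1.23% of all genes (0.443% higher, 0.785% lower). GCLM (0.90, adjusted p = 0.0776) and TXNRD1 (0.32, adjusted p = 0.0693) were higher in every reversine than in every BafA1 library, as 4.08% of all genes were, without being called. Against MG132, reversine libraries were lower in HMOX1 (-2.13, adjusted p = 0.00023), GCLM (-1.43, adjusted p = 0.00268) and TXNRD1 (-0.61, adjusted p = 0.000903), 3 calls in a comparison that called 6.51% of all genes (3.52% higher, 2.99% lower). GCLC was lower in every reversine than in every MG132 library, as 14.7% of all genes were, but was not called (-0.58, adjusted p = 0.0822). The GCLM and TXNRD1 calls were lost without the low-GC libraries (adjusted p = 0.148 and 0.0541).

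MG132 libraries exceeded BafA1 libraries in 4 genes, in a comparison that called 10.9% of all genes (4.49% higher, 6.37% lower). The difference was 4.67 for HMOX1 (adjusted p = 3.82e-06), 2.33 for GCLM (adjusted p = 0.000113), 0.94 for TXNRD1 (adjusted p = 5.62e-05) and 0.74 for GCLC (adjusted p = 0.0207). The TXNRD1 call was lost with GC and length correction over all rows (0.38, adjusted p = 0.315). The GCLC call was lost without BafA1 1 (adjusted p = 0.0778), BafA1 3 (0.0672), MG132 2 (0.0923) or MG132 3 (0.068). NFE2L2, KEAP1, NQO1 and TXN were not called in any of the 3 comparisons between treatments.

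Beyond the 8 genes, 7 lists of other genes of the pathway held 104 genes, of which 103 passed the filter on low values. MG132 raised 36 and lowered 18 of them, where 7.14% of all tested genes were called higher and 7.67% lower, with a median difference of 0.39 against 0.04 over all tested genes. The split was 28 higher and 22 lower with median-ratio scaling. After GC and length correction over all rows it was 25 and 7, where 821 of 25349 genes were called higher and 1358 lower. Of the 54 calls, 27 held in every alternative in which the gene was tested, and none changed direction. The share of all genes called depends on the rows tested: on transcripts of at least 500 nt without correction it was 7027 of 16049. At an unadjusted p under 0.05 (limma), MG132 gave 44 higher and 26 lower of the 103, against 41.0% of all genes in either direction. The lists were chosen with earlier results of these data known. Reversine raised 5 and lowered 2 of the 103, where 0.801% of all genes were called higher and 1.29% lower (median 0.11, against 0.09 over all genes), and 0 of these 7 calls held in every alternative. At an unadjusted p under 0.05 (limma), reversine gave 23 higher and 12 lower of the 103, against 11.8% of all genes in either direction. BafA1 changed 0 of 103 in limma's test. At an unadjusted p under 0.05 BafA1 gave 6 higher and 5 lower, against 7.12% of all genes, and the lowest adjusted p among the 103 was 0.0753.

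**Figure D4:**
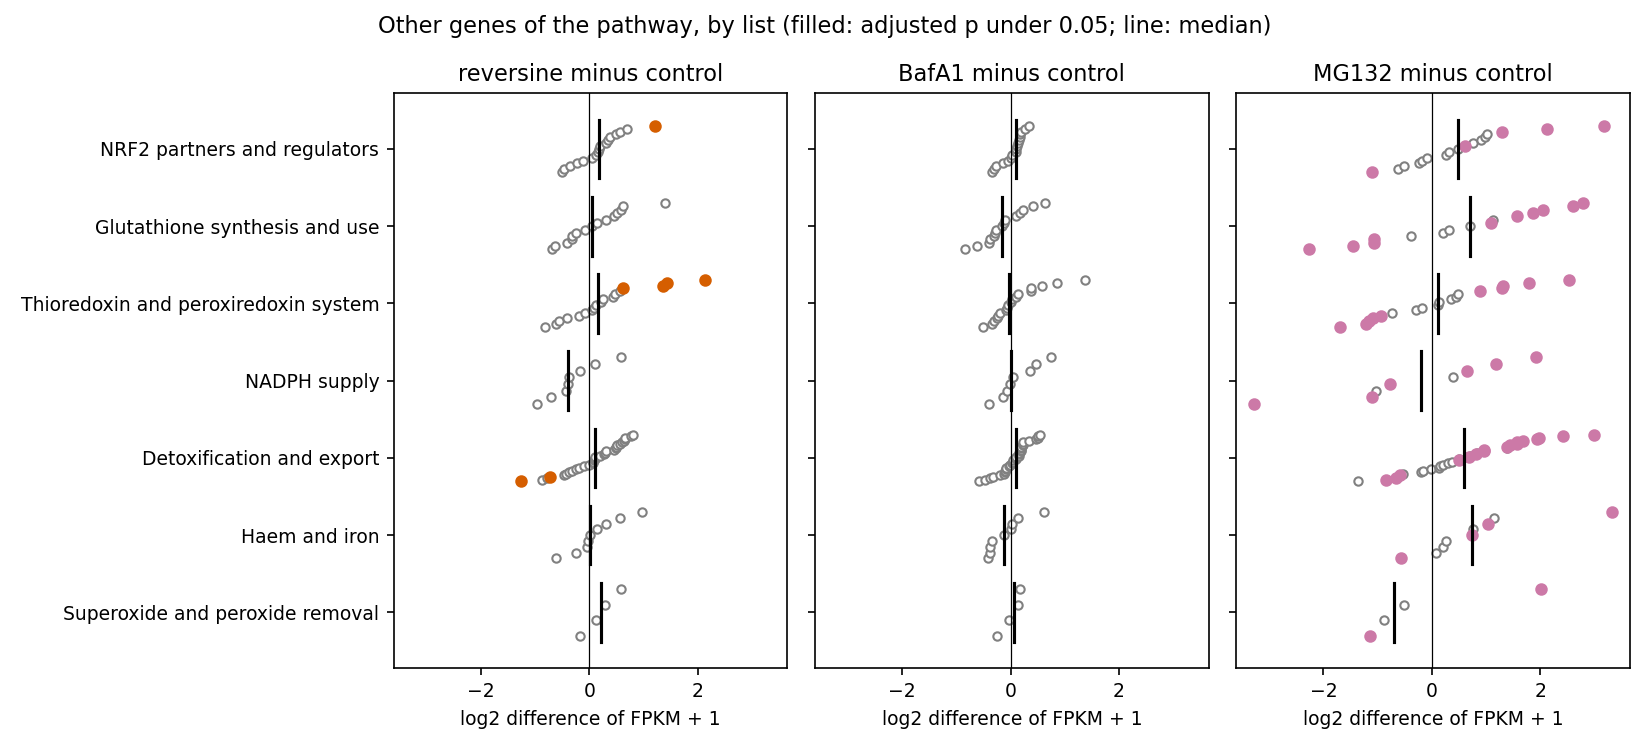
Difference from control on the log2(FPKM + 1) scale for the 103 other genes of the pathway, by list (rows) and treatment (panels); each circle is 1 gene, filled circles were called and the vertical line marks the median of the list. Filled circles are frequent under MG132 (36 higher, 18 lower), sparse under reversine (5 and 2) and missing under BafA1.

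Among the partners and regulators of NRF2, MG132 raised 4 of 17 genes and lowered 1. SQSTM1, which encodes p62, the autophagy receptor that binds KEAP1, reached 3505 ± 907 FPKM under MG132, against 376 ± 5.66 in controls (difference 3.19, adjusted p = 2.15e-05). Of the small MAF partners, MAFG rose to 80.4 ± 4.76 FPKM against 17.6 ± 1.86 in controls (2.13) and MAFF to 47.6 ± 5.57 FPKM against 18.7 ± 2.27 (1.30, adjusted p = 0.00284), while MAFK was not called (1.02, adjusted p = 0.0522). FBXW11, an adaptor of a second ubiquitin ligase that acts on NRF2, rose to 39.1 ± 1.95 FPKM against 25.1 ± 0.78 (0.62, adjusted p = 0.0119), a call lost in 7 alternatives, among them without control 1 (adjusted p = 0.0574), control 3 (0.0534), MG132 2 (0.0766) or MG132 3 (0.0707). The related factor NFE2L3 fell to 1.72 ± 0.387 FPKM, against 4.84 ± 0.299 in controls (-1.11, adjusted p = 0.00725), a call lost with the 2 groups only (adjusted p = 0.096). Reversine raised 1 of the 17, SQSTM1, to 887 ± 195 FPKM (1.21, adjusted p = 0.0134). That call was lost in 8 alternatives, including without control 1 (adjusted p = 0.0641), control 2 (0.0608), control 3 (0.0674), reversine 2 (0.0586) or reversine 3 (0.0564).

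Of 15 tested genes for glutathione synthesis and use, MG132 raised 6 and lowered 4. SLC7A11, the cystine carrier that supplies cysteine for glutathione, rose to 22.0 ± 10.9 FPKM, against 2.41 ± 0.145 in controls (2.60, adjusted p = 0.00664), and by 1.60 without the low-GC libraries. Glutaredoxin GLRX rose to 139 ± 38.5 FPKM against 18.7 ± 1.27 (2.79), the secreted peroxidase GPX3 to 20.7 ± 3.74 against 4.21 ± 0.55 (2.05) and GGT1, which breaks down extracellular glutathione, to 25 ± 6.70 against 7.56 ± 0.581 (1.58). In the other direction, the cytosolic peroxidase GPX1 fell to 87.0 ± 20.8 FPKM under MG132, against 417.5 ± 18 in controls (-2.27, adjusted p = 0.000231), and the mitochondrial glutaredoxin GLRX5 to 19.0 ± 2.68 against 53.5 ± 6.80 (-1.45, adjusted p = 0.000542).

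In the thioredoxin and peroxiredoxin system MG132 raised 5 and lowered 5 of 18 genes. The stress-induced sestrin SESN2 rose to 48.5 ± 6.40 FPKM under MG132, against 7.49 ± 0.366 in controls (2.54, adjusted p = 2.57e-05), and the peroxiredoxin PRDX6 to 417 ± 42.4 against 169 ± 7.59 (1.30, adjusted p = 0.000107). MSRB1, a methionine sulfoxide reductase, rose to 9.20 ± 1.10 FPKM against 3.12 ± 0.327 (1.31, adjusted p = 0.00764), a call lost without the low-GC libraries (adjusted p = 0.0757) and with GC and length correction over all rows (0.0886). TXNL1 rose to 65.5 ± 29 FPKM against 16.6 ± 0.751 (1.80, adjusted p = 0.0188), a call lost in 7 alternatives, among them the removal of any 1 control or of MG132 2 or MG132 3 (adjusted p = 0.0534 to 0.0833), and its difference was 0.91 without the low-GC libraries. PRDX4, the peroxiredoxin of the endoplasmic reticulum, fell to 34.3 ± 1.73 FPKM against 74.0 ± 0.895 (-1.09, or -1.81 after GC and length correction over all rows) and MSRB3 to 48.4 ± 18.7 against 152 ± 22.2 (-1.69).

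Reversine raised 4 of these 18 genes and lowered none. TXNIP, which binds and inhibits thioredoxin, rose to 29.8 ± 5.58 FPKM, against 5.95 ± 0.657 in controls (2.14, adjusted p = 0.00242). SESN2 rose to 21.9 ± 2.51 FPKM against 7.49 ± 0.366 (1.43, adjusted p = 0.00245) and SESN1 to 18.3 ± 1.24 against 6.53 ± 0.299 (1.36, adjusted p = 0.0063), both sestrins being known p53 targets. All 3 calls were lost when only the 2 groups were fitted (adjusted p = 0.0796 for TXNIP and 0.116 for each sestrin), and those of SESN1 (0.0677) and SESN2 (0.0558) also with GC and length correction over all rows. PRDX6 rose to 259.7 ± 2.36 FPKM against 169 ± 7.59 (0.62, adjusted p = 0.0219), a call lost when any 1 of the 6 libraries was left out (adjusted p = 0.0545 to 0.119).

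The list of NADPH supply, on which both glutathione and thioredoxin reductases depend, divided evenly under MG132, with 3 higher and 3 lower of 8. Malic enzyme ME1 rose to 58.1 ± 11.8 FPKM, against 14.3 ± 0.309 in controls (1.93, adjusted p = 0.000168), and the cytosolic isocitrate dehydrogenase IDH1 to 87.2 ± 17.8 against 37.97 ± 8.51 (1.18), the IDH1 call being lost without the low-GC libraries (adjusted p = 0.156). Its mitochondrial counterpart IDH2 fell to 12 ± 3.14 FPKM against 123 ± 1.31 (-3.28, adjusted p = 8.39e-05). Of the pentose phosphate enzymes, TALDO1 rose to 460.4 ± 50.1 FPKM against 293 ± 7.80 (0.64, adjusted p = 0.018), whereas TKT fell to 382.5 ± 87.6 against 815 ± 143 (-1.10, adjusted p = 0.023) and PGLS to 51.7 ± 6.19 against 88.8 ± 5.2 (-0.77, adjusted p = 0.0278). Calls of the last 3 were lost under 6 to 8 alternatives each, which included leaving out control 1 (adjusted p = 0.063 for TALDO1 and TKT, 0.0771 for PGLS), control 3 (0.0586, 0.0822 and 0.0822) or MG132 2 (0.0816, 0.0826 and 0.0975), control 2 for TALDO1 (0.063) and PGLS (0.0707), and MG132 3 for TKT (0.0928) and PGLS (0.121).

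In the longest list, detoxification and export, MG132 raised 14 and lowered 3 of 32 genes. OSGIN1, an oxidative stress-induced growth inhibitor, rose to 83.6 ± 16 FPKM, against 9.59 ± 0.953 in controls (2.99, adjusted p = 5.73e-05), and PTGR1, a prostaglandin reductase, to 86.4 ± 25.8 against 20.9 ± 1.52 (1.95). The quinone reductase NQO2 rose to 70.0 ± 7.92 FPKM against 25.1 ± 4.10 (1.45, adjusted p = 0.000741), whereas its paralog NQO1 was not called, as given above. The aldo-keto reductase AKR1B10 rose to 9.10 ± 3.01 FPKM against 0.82 ± 0.125 (2.43), AKR1C1 to 6.06 ± 1.18 against 0.773 ± 0.153 (1.98) and AKR1C3 to 15.8 ± 3.94 against 4.17 ± 0.78 (1.68). On the log2(FPKM + 0.1) scale, which compresses low levels less, the differences of AKR1B10 and AKR1C1 were 3.27 and 2.81. The AKR1C genes are close paralogs, AKR1C1 and AKR1C2 most of all, so the division of reads among them is uncertain. AKR1C2 was called as well (0.49, adjusted p = 0.0036). Reversine lowered 2 of the 32, UGDH (51.8 ± 3.19 FPKM, against 86.4 ± 5.83 in controls, -0.73, adjusted p = 0.0122) and CBR3 (13.9 ± 3.96 FPKM against 33.9 ± 3.39, -1.26, adjusted p = 0.0128). Each of these 2 calls was lost in 6 alternatives, UGDH without control 1 (adjusted p = 0.0623) or control 3 (0.106) and CBR3 without control 1 (0.0554), control 2 (0.0524) or control 3 (0.084).

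Of 9 genes for haem and iron MG132 raised 3 and lowered 1. Ferritin, which stores the iron that haem oxygenase frees, rose in both chains: FTL to 6590.0 ± 2090.0 FPKM, against 634 ± 74.4 in controls (3.32, adjusted p = 0.000151), and FTH1 to 6342 ± 964 against 3794 ± 570.0 (0.74, adjusted p = 0.0151). Without the low-GC libraries the FTL difference was 2.72. The FTH1 call was lost in 5 alternatives, among them without control 1 (adjusted p = 0.0525) or control 2 (0.0616), and both ferritin genes have processed pseudogenes that can share their reads. The haem carrier SLC48A1 rose to 34.3 ± 2.25 FPKM against 16.1 ± 0.408 (1.04), and the constitutive haem oxygenase HMOX2 fell to 49.8 ± 1.73 against 74.7 ± 2.65 (-0.58, adjusted p = 0.00598), the direction opposite to HMOX1, a call lost with GC and length correction over all rows (adjusted p = 0.174). Of 4 genes for superoxide and peroxide removal, SOD1 rose to 603 ± 120.0 FPKM under MG132, against 148 ± 17.2 in controls (2.01, adjusted p = 0.00021), and the extracellular SOD3 fell to 5.28 ± 1.66 against 12.6 ± 1.86 (-1.14, adjusted p = 0.0336). The SOD3 call was lost in 9 alternatives, among them the removal of any 1 control or of MG132 2 or MG132 3 (adjusted p = 0.0596 to 0.129), and its difference was -0.44 after the correction on transcripts of at least 500 nt.

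Genes with a profile most like that of each called member were found over the 12 libraries among genes that averaged 5 FPKM or more, by the root mean square difference in log2(FPKM + 1) after subtraction of the control mean. For HMOX1 these were IL12A (0.656), OSGIN1 (0.678) and RND3 (0.696), and for GCLM they were PPP1R15A (0.234), SRGN (0.242) and RTCA (0.267). GCLC was closest to ABCF3 (0.116), SPG7 (0.12) and DUSP3 (0.132), and TXNRD1 to ENSG00000121083, which has no symbol in the table (0.107), SERP1 (0.108) and TLDC1 (0.111). PPP1R15A, a regulatory subunit of the phosphatase for eIF2α, averaged 59.0 FPKM under reversine, 33.0 under BafA1 and 151 under MG132, against 41.5 in controls. These genes were picked for likeness in the same libraries, so a shared order of groups is no separate result. The distances for HMOX1 exceed those for the other 3 genes, whose changes were smaller.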

How the data were processed

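RNA sequencing of 12 hTERT-RPE1 libraries (oligo(dT) selection, TruSeq, 50 nt reads, per the labels' protocols) was analysed from 1 gene table. The authors aligned reads with Bowtie 1.0.0 and quantified them with RSEM 1.2.6 against the build hg19 (also listed as GRCh37); these names come per the submitters' processing notes. The deposited values were taken as FPKM: the header names no unit, and column totals differ between libraries, as those of TPM would not. Many low rows hold small positive values and 889 rows are 0 in every library, and read counts are not given in the sources used here, so no counting interval is given. Unused value columns numbered 0, and no 2 libraries were identical.

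Rows that reached 1 FPKM in 3 libraries or more (30712 of 53361) were fitted on log2(FPKM + 1), which understates changes of low genes, with the limma trend method (limma 3.58.1, R 4.3.3) in 1 fit of 4 groups with no covariate (8 residual degrees of freedom, prior 1.26), with Benjamini-Hochberg adjustment over all tested rows in each of 6 comparisons and calls at 0.05. The fit was tested on simulated data. Groups came from the labels, and replicates are numbered in accession order. The members and lists were chosen with earlier results of these data known. Besides the members, genes of 7 lists were named where called against control, at most 6 a list and comparison by smallest adjusted p. Alternatives were log2(FPKM + 0.1), no filter, 5 FPKM in 3 libraries, median-ratio scaling, fits of 2 groups, each library left out, the 4 low-GC libraries left out, and a correction of each library for GC content and length (spline of 5 degrees of freedom, GENCODE v29 values for 82.5% of the tested rows). Further fits on transcripts of at least 500 nt (16049 rows), with and without that correction, were added after seeing the data. Promoter windows came from RefSeq (GRCh38.p14), another build than that of the values, so no coordinates were combined.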

Additional observations from a re-analysis of the deposited data

How the results depend on the processing

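No paired analysis was possible because the labels carry no replicate number shared between groups. Of 720 values of the 8 genes under an alternative, 623 kept their direction and their side of the threshold, 40 were no longer called, 19 were newly called and 38 changed sign, of which 1 was called under the alternative, TXN in MG132 minus BafA1. Single-library removals changed the calls of members from 4 to between 3 and 5 for MG132 minus control, from 1 to 0 for BafA1 minus control, between 3 and 4 for reversine minus MG132, between 3 and 5 for MG132 minus BafA1, and left 1 for reversine against control and against BafA1. Median-ratio scaling moved the median of all genes to 0.235 (without it -0.008) for reversine minus MG132 and to -0.19 (without it -0.046) for MG132 minus BafA1. The cause was not tested for any change listed here. FPKM without read counts limit what can be said of low levels.

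Members called, reversine minus control (1), were 2 (1 higher, 1 lower) with GC and length correction on transcripts of at least 500 nt and 0 with the 2 groups only. Of all 16049 genes in that corrected fit, 2543 were called for reversine, 622 for BafA1 and 7707 for MG132, each against control. Members called, BafA1 minus control (1), were 2 with log2(FPKM + 0.1) and with at least 5 FPKM, 3 with the correction on at least 500 nt, all lower, and 0 with median-ratio scaling, without the 4 low-GC libraries, with the correction over all rows and with the 2 groups only. Members called, MG132 minus control (4), were 2, both higher, with median-ratio scaling and with the correction over all rows, 2 without those 4 libraries (HMOX1 higher, NQO1 lower), and 7 with the correction on at least 500 nt (4 higher, 3 lower). Members called were 2 for reversine minus BafA1 (1) with log2(FPKM + 0.1) and in both fits on at least 500 nt, and 0 with the 2 groups only; 1 for reversine minus MG132 (3) without the 4 libraries, with the correction over all rows and with the 2 groups only; and 2 for MG132 minus BafA1 (4) with the correction over all rows.

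Other pathway genes called, reversine minus control (7), were 4 with median-ratio scaling, 2 with the correction over all rows, 17 on at least 500 nt uncorrected, 27 corrected, 0 with the 2 groups only and 3 to 7 with single libraries left out. For BafA1 (0) they were 1 with log2(FPKM + 0.1), 1 and 4 on at least 500 nt uncorrected and corrected, and 0 with each library left out. For MG132 (54) they were 32 with the correction over all rows and 37 to 70 with single libraries left out.

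Genes called among all tested, reversine minus control (642), were 427 with median-ratio scaling, 80 with the correction over all rows, 1484 and 2543 on at least 500 nt uncorrected and corrected, 11 with the 2 groups only and 247 to 584 with single libraries left out. For BafA1 minus control (81) they were 45, 38, 244, 622, 19 and 19 to 34 in the same order, and 44 without the 4 libraries. For MG132 minus control (4549) they were 2576 without the 4 libraries, 2179 with the correction over all rows, 7027 and 7707 on at least 500 nt, 2751 with the 2 groups only and 2435 to 13046 with single libraries left out, the highest without MG132 1. For reversine minus BafA1 (377) they were 217 with median-ratio scaling, 171 without the 4 libraries, 47 with the correction over all rows, 730 and 1334 on at least 500 nt, 2 with the 2 groups only and 142 to 317 with single libraries left out. For reversine minus MG132 (2000) they were 945 without the 4 libraries, 893 with the correction over all rows, 3712 and 4495 on at least 500 nt, 256 with the 2 groups only and 965 to 17101 with single libraries left out. For MG132 minus BafA1 (3334) they were 1753 without the 4 libraries, 5777 on at least 500 nt corrected, 1413 with the 2 groups only and 1855 to 18445 with single libraries left out. The highest counts of both came without MG132 1.

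Sign changes with the correction over all rows gave log2 differences of 0.19 for NFE2L2, 0.11 for NQO1 and 0.070 for TXNRD1 in reversine minus control, 0.046 for NFE2L2, 0.021 for NQO1 and 0.30 for GCLC in BafA1 minus control, 0.41 for NFE2L2 and 0.68 for TXN in reversine minus MG132, and -0.26 for NFE2L2 and -0.99 for TXN in MG132 minus BafA1. With the correction on at least 500 nt they gave 0.12 for NFE2L2 and 0.23 for TXN in reversine minus MG132 and -0.49 (adjusted p = 0.0377, limma) for TXN in MG132 minus BafA1, against 0.10 as reported. With median-ratio scaling they gave 0.014 for TXN in reversine minus BafA1, 0.26 for NFE2L2 and 0.12 for TXN in reversine minus MG132, and -0.10 for TXN in MG132 minus BafA1. Without the 4 libraries they gave 0.075 for NFE2L2 in reversine minus control, 0.0064 for GCLC in BafA1 minus control, 0.19 for NFE2L2 in MG132 minus control, 0.096 and 0.33 for TXN in reversine minus BafA1 and minus MG132, and -0.24 for TXN in MG132 minus BafA1. With single libraries left out, the log2 difference ran from -0.21 to 0.075 for NFE2L2 in reversine minus control, -0.12 to 0.061 for GCLC in BafA1 minus control, -0.18 to 0.044 for NFE2L2 and -0.24 to 0.18 for TXN in MG132 minus control, -0.60 to 0.053 for KEAP1 and -0.23 to 0.089 for TXN in reversine minus BafA1, -0.15 to 0.13 for NFE2L2 in reversine minus MG132, and -0.30 to 0.082 for NQO1 and -0.069 to 0.35 for TXN in MG132 minus BafA1.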
